A study of Homo sapiens with 6 samples.

Results

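The kinesin superfamily was followed in RKO cells, a line established from a human colorectal tumour, treated with EZA or with the solvent DMSO. Members were the rows of the count table whose Ensembl identifier carries, in GENCODE 44, a protein-coding symbol made of KIF, a number and at most 1 letter, which gave 39 genes of the 58735 rows. They were set out as 13 mitotic kinesins, 13 cargo-carrying kinesins and 13 others, from textbook roles. KIF2A, which works at spindle poles and in neurites, was put among the others. Each group held 3 libraries of poly(A) RNA, which the study calls biological replicates; whether they came from separate cultures is not said, and p-values therefore cover only the spread among these 6 samples. Both groups are the unmodified line, which stands for 1 tumour. What EZA stands for is not spelled out in the labels, and no source used here gives its dose or time.

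Kinesins are motor proteins that hydrolyse ATP and, in most families, walk toward the plus end of microtubules. One set builds and works the mitotic spindle: it slides poles apart, moves chromosomes, shortens microtubules at kinetochores and organises the midzone where the cell divides. Transcripts of many of these motors are known to peak in G2 and mitosis in dividing cells. A second set carries vesicles, mitochondria, lysosomes and ciliary cargo and is needed throughout the cell cycle, often with light chains or adaptor proteins that choose the cargo.

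Libraries held 14070611 to 18840954 counts. One library, EZA replicate 3, differed from the rest: 0.2035% of its counts fell in mitochondrial genes (Wilson 95% interval, for counting error, 0.2012% to 0.2059%), against 3.68% to 4.29% in the other EZA libraries and 4.45% to 5.02% in the DMSO libraries. Fold changes also followed the GC content of the transcript. Results that rest on this library or on that trend are therefore given with and without them. Of 10 epithelial and colon markers, KRT18, KRT8, CDX2 and EPCAM were measured at 125, 29.1, 18.1 and 7.24 CPM in EZA cells and 126, 19.0, 19.3 and 7.18 CPM in DMSO cells, while CDH1, CDX1 and CDH17 had no counts and KRT19, KRT20 and VIL1 had 1 to 4. The leukocyte and endothelial markers PTPRC, CD3E and PECAM1 had no counts, while the macrophage marker CD68 had 36, 27 and 0 counts in EZA replicates 1 to 3 and 18, 25 and 12 in DMSO replicates 1 to 3, without a call; their part in the results was not tested.

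Mitotic kinesin transcripts were lower in EZA-treated cells, and cargo-carrying ones showed no call. Of the 11 mitotic kinesins with enough counts to be tested, 8 fell (edgeR quasi-likelihood test, adjusted p below 0.05 over 13503 genes), and 0 rose, where 7.82% of all tested genes fell and 9.89% rose. Their median log2 fold change was -0.83, against -0.01 over all tested genes. Of the 10 cargo kinesins tested, 0 were called in edgeR in either direction, where 17.7% of all tested genes were called; 2 were lower and 1 was higher at an unadjusted p below 0.05, where 16.6% and 18.0% of all tested genes were. DESeq2 called 1 cargo kinesin, lower, where it called 10.1% of all genes lower, and limma-voom called 0, where it called 8.04% lower. The cargo median was 0.03. Of the 9 other kinesins tested 0 were called in edgeR, 3 were lower and 1 higher at an unadjusted p below 0.05, and both DESeq2 and limma-voom called 1, KIF24. A transcript level in a bulk sample can fall because fewer cells are in a phase or because each cell holds less RNA, and these cannot be told apart here.

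The number of mitotic calls differed with the library that was left out. Without DMSO replicate 1 or 3, 0 mitotic kinesins were called in edgeR, where 0.451% and 0.529% of all tested genes were called lower. In each of these fits 8 were lower at an unadjusted p below 0.05. So were 1472 of 13742 and 1479 of 13811 tested genes. Leaving out DMSO replicate 2 gave 2 edgeR calls, KIF11 and KIF23, against 2.17% of all genes. Without EZA replicate 1 or EZA replicate 2, 5 were called, against 4.38% and 3.86% of all genes. Without EZA replicate 3 there were 9, against 19.2%. The adjusted p of the 8 genes without DMSO replicate 1 ran from 0.0541 for KIF11 to 0.14 for KIF14 and KIF15. The median log2 fold change of the mitotic kinesins stayed between -0.88 and -0.69 over these 6 fits, and each of the 11 tested mitotic genes was below 0 in all 16 alternatives.

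**Figure D1:**
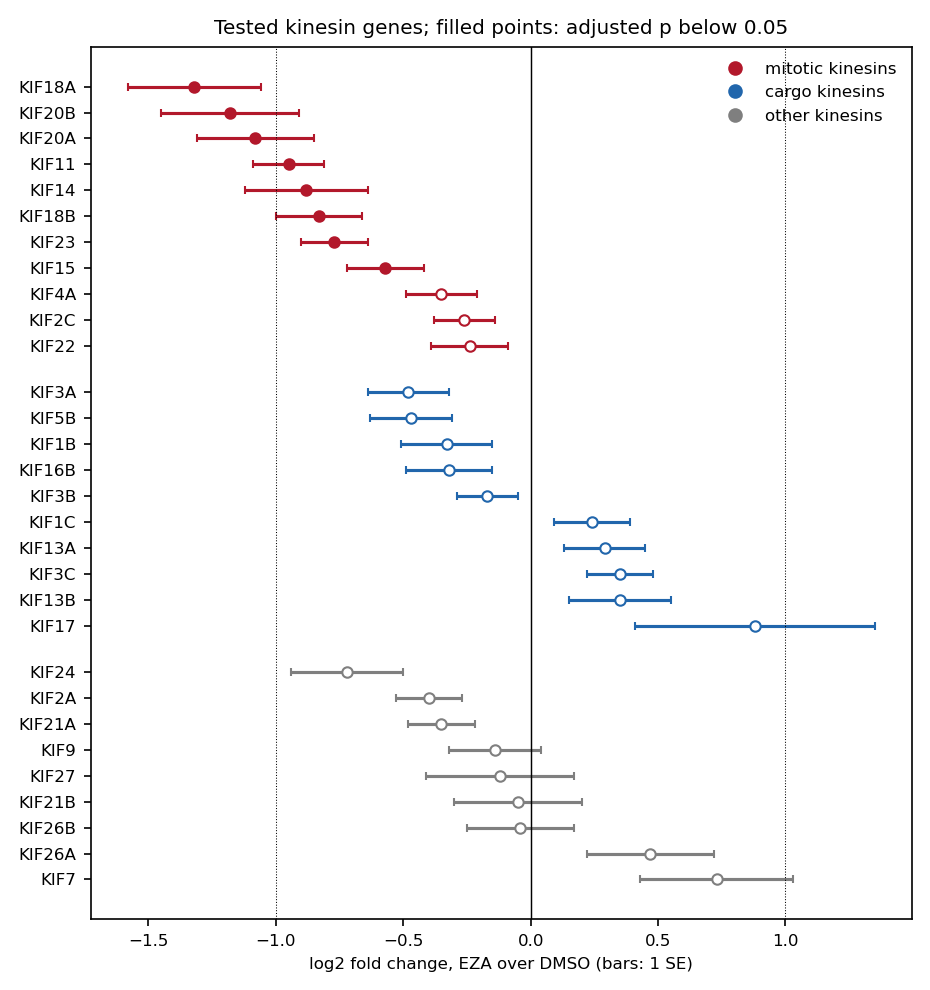
Log2 fold change, EZA over DMSO, with 1 SE for the 30 tested kinesin genes, grouped by role from top to bottom; filled points passed an adjusted p below 0.05 and dotted lines mark the 2-fold change of the study's threshold. The 11 mitotic genes lie between -1.32 and -0.24, and the 10 cargo genes between -0.48 and 0.88.

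Most mitotic kinesins share promoter motifs that did not enter the choice of members. Genes expressed in G2 and mitosis are known to carry a cell cycle genes homology region (CHR, the letters TTTGAA, with TTCGAA as a variant), bound by the MuvB core of the DREAM and MMB complexes, often a short distance downstream of CCAAT boxes bound by NF-Y. RefSeq promoters (GRCh38.p14) of 250 bases before and 50 after the start were found for 33 of the 39 members, and for each gene the start nearest to the GENCODE canonical start was used. A CHR or its variant, on either strand, was present in 10 of 13 mitotic promoters (76.9%), 1 of 11 cargo promoters (9.09%) and 1 of 9 others (11.1%), against 10.5% of the promoters of 9931 tested genes. CCAAT was present in 10 of 13 mitotic promoters (76.9%) and 4 of 11 cargo promoters (36.4%), against 37.2% of tested genes. Both were present in 9 of 13 mitotic promoters (69.2%) and 1 of 11 cargo promoters (9.09%), against 4.72%. These member counts include untested genes. Among tested members a CHR was present in 9 of 11 mitotic and 1 of 9 cargo promoters. CCAAT was present in 9 of 11 and 3 of 9, and both in 8 of 11 and 1 of 9. In no member did a CHR match overlap a CCAAT match. A match is a run of letters, not a shown binding site.

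The stretches from 150 bases before to 20 bases after the start are shown for 5 of the mitotic kinesins that fell and for the most abundant cargo kinesins, 5′ to 3′ on the gene's strand, with CHR and CCAAT matches in capitals (TTCAAA and ATTGG are the same motifs on the other strand).
KIF11 (chr10:92592980-92593149, plus strand): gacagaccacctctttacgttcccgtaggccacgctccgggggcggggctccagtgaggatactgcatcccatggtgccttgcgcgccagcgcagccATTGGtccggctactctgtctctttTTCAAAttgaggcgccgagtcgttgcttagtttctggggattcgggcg
KIF18A (chr11:28108137-28108306, minus strand): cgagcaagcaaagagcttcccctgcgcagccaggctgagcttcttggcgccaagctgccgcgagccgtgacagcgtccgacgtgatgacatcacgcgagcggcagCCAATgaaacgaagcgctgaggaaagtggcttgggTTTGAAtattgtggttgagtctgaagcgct
KIF18B (chr17:44947754-44947923, minus strand): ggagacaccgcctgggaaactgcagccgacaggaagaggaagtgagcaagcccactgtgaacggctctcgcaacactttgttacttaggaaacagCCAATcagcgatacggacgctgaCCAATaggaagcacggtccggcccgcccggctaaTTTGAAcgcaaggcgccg
KIF23 (chr15:69414199-69414368, plus strand): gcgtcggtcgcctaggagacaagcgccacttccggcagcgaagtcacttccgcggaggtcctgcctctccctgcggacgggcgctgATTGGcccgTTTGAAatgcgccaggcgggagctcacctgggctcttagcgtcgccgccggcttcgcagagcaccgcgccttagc
KIF20A (chr5:138178962-138179131, plus strand): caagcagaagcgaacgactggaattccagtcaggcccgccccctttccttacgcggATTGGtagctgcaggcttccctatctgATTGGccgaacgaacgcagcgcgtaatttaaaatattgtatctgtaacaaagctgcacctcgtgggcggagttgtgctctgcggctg
KIF5B (chr10:32056406-32056575, minus strand): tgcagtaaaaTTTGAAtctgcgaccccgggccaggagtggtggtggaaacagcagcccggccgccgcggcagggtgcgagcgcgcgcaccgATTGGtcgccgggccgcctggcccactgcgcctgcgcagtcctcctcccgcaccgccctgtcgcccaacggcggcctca
KIF1C (chr17:4997800-4997969, plus strand): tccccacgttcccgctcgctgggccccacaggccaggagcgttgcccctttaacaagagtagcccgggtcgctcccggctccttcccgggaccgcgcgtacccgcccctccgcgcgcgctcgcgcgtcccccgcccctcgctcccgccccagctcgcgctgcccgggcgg

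In KIF11 the CCAAT match lay at -53 and the CHR match at -28 from the start, in KIF18A at -45 and -10, and in KIF23 at -64 and -55. KIF18B had CCAAT matches at -55 and -32 and its CHR match at 3. KIF20A fell with 2 CCAAT matches and no CHR letters in the window, and KIF15 fell with a CHR match at -35 and no CCAAT. Among the tested mitotic kinesins without a call, KIF4A had a CCAAT match at -58 and a CHR match at -34. KIF22 had a CCAAT match at -66 and the variant TTCGAA at -27, and KIF2C had neither motif. The CHR match of KIF5B lay at -140, farther from the start than in any of the mitotic promoters, and KIF1C had neither motif.

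**Figure D2:**
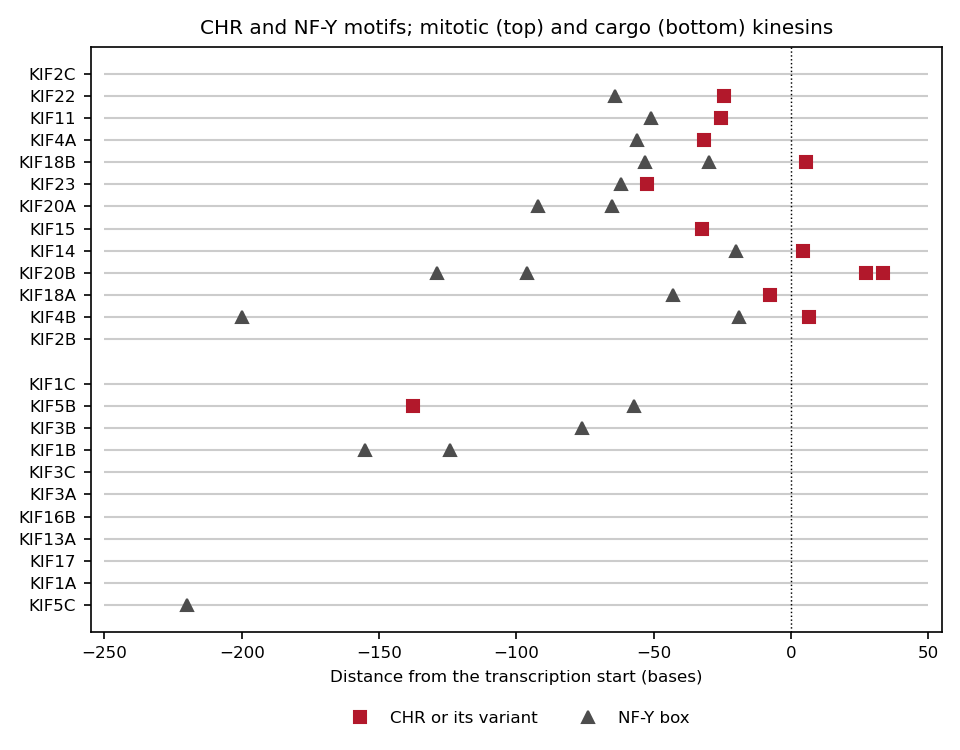
Position of CHR matches (squares, either variant) and NF-Y box matches (triangles) relative to the transcription start in bases, for mitotic kinesins above and cargo kinesins below; each grey line is 1 promoter. CHR matches start between -55 and 31 in 10 of the 13 mitotic promoters and at -140 in 1 of the 11 cargo promoters.

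KIF11 (Eg5, ENSG00000138160, chromosome 10, 92574105 to 92655395, GRCh38) is the kinesin-5 motor that slides antiparallel microtubules and pushes the spindle poles apart. Its transcript was at 47.7, 47.9 and 57.0 CPM (the gene's counts relative to its library's TMM-scaled total) in EZA replicates 1 to 3 and at 105, 84.5 and 105 CPM in DMSO replicates 1 to 3. All EZA values lay below the lowest DMSO value. The log2 fold change was -0.95 ± 0.14 (SE; edgeR adjusted p = 0.0064). KIF15, a kinesin-12 that can take over from KIF11 in keeping a bipolar spindle, was at 18.8, 18.6 and 22.6 CPM in EZA cells and 31.5, 26.7 and 31.1 CPM in DMSO cells, again without overlap. Its log2 fold change of -0.57 ± 0.15 (edgeR adjusted p = 0.0308) was the smallest of the 8.

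Of the kinesin-8 motors, KIF18A, which dampens chromosome movement at microtubule plus ends, and KIF18B fell, and KIF19 had no counts. KIF18A (chromosome 11, 28020619 to 28108156) was at 2.41, 5.08 and 3.46 CPM in EZA cells and 9.20, 9.0 and 9.33 CPM in DMSO cells. The EZA values lay well under the narrow DMSO range, and the log2 fold change of -1.32 ± 0.26 (edgeR adjusted p = 0.0136) was the largest fall among the 30 kinesins. KIF18B, which with KIF2C shortens astral microtubules, was at 40.9, 27.7 and 35.4 CPM in EZA cells and 55.2, 67.4 and 62.5 CPM in DMSO cells, and EZA replicate 2 was the lowest library. Its log2 fold change was -0.83 ± 0.17 (edgeR adjusted p = 0.0152).

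All 4 midzone and cytokinesis motors fell. KIF20A (MKLP2, chromosome 5, 138178719 to 138187723), the kinesin-6 that brings the chromosomal passenger complex to the midzone, was at 20.4, 19.8 and 10.5 CPM in EZA cells and 37.1, 35.0 and 35.4 CPM in DMSO cells. The groups did not overlap, with EZA replicate 3 about as far below the other EZA libraries as these were below DMSO, and the log2 fold change was -1.08 ± 0.23 (edgeR adjusted p = 0.0189). Its exons overlap those of CDC23 and BRD8 on the other strand (5481 and 5105 counts against 2524 of KIF20A), and the libraries do not mark strand. KIF23 (MKLP1), the motor subunit of centralspindlin, was at 36.1, 41.0 and 37.7 CPM in EZA cells and 69.6, 59.8 and 66.3 CPM in DMSO cells. The 3 EZA libraries lay close together, and the log2 fold change was -0.77 ± 0.13 (edgeR adjusted p = 0.00838).

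KIF20B (chromosome 10, 89701590 to 89774939), a kinesin-6 of late cytokinesis, was at 6.48, 6.85 and 13.6 CPM in EZA cells and 22.0, 19.5 and 19.2 CPM in DMSO cells. Here EZA replicate 3 was the highest EZA library, still below all DMSO libraries. The log2 fold change was -1.18 ± 0.27 (edgeR adjusted p = 0.0231), and -1.60 without EZA replicate 3. KIF14, a kinesin-3 that recruits citron kinase to the midbody, was at 14.6, 12.7 and 25.1 CPM in EZA cells and 32.3, 31.9 and 32.0 CPM in DMSO cells. The same library stood out, and the log2 fold change was -0.88 ± 0.24 (edgeR adjusted p = 0.0362), or -1.23 without EZA replicate 3.

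**Figure D3:**
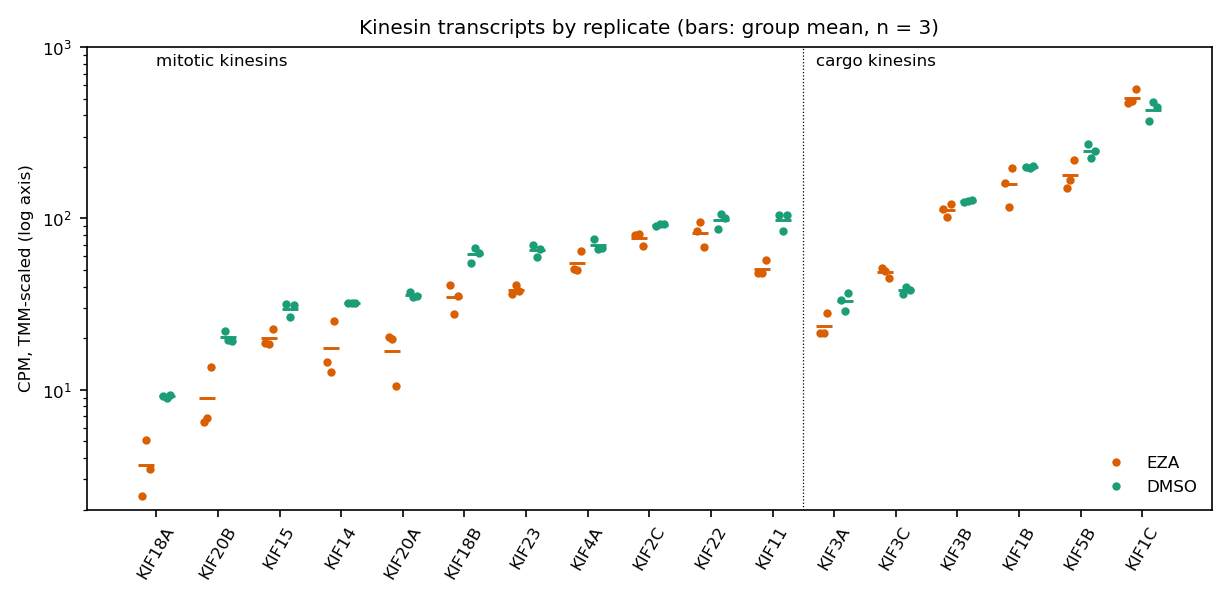
TMM-scaled CPM on a logarithmic axis for the 11 tested mitotic kinesins (left) and 6 cargo kinesins (right), with a point per replicate, EZA to the left of DMSO in each pair, and a bar for the mean of 3 replicates. The groups do not overlap in 10 of the 11 mitotic kinesins; KIF22 overlaps, with 68.1 to 95.5 CPM in EZA cells and 87.3 to 106 CPM in DMSO cells.

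Of the tested mitotic kinesins 3 missed the threshold, and 2 of them are the most abundant of the set per length. KIF2C (MCAK), the kinesin-13 that depolymerises microtubules at centromeres, was at 79.7, 81.1 and 69.1 CPM in EZA cells and 90.7, 92.5 and 92.2 CPM in DMSO cells. The groups did not overlap, and the log2 fold change was -0.26 ± 0.12 (edgeR adjusted p = 0.16). KIF22 (Kid), the kinesin-10 that pushes chromosome arms away from the poles, was at 84.1, 95.5 and 68.1 CPM in EZA cells and 87.3, 106 and 100 CPM in DMSO cells, which overlap (log2 fold change -0.24 ± 0.15, edgeR adjusted p = 0.297). KIF4A, the chromokinesin that sets midzone length with PRC1, was at 50.7, 50.3 and 64.2 CPM in EZA cells and 75.7, 66.5 and 67.6 CPM in DMSO cells (log2 fold change -0.35 ± 0.14, edgeR adjusted p = 0.12). Its groups did not overlap, its exons overlap PDZD11 on the other strand (2850 counts against 5925), and without EZA replicate 3 it was called at -0.47 (edgeR adjusted p = 0.00134). Of the remaining mitotic genes KIF2B had no counts, and KIF4B, an intronless copy of KIF4A whose reads cannot be fully told from those of KIF4A, had 9 counts in the EZA libraries and 6 in the DMSO libraries. All EZA libraries lay below all DMSO libraries in 10 of the 11 tested mitotic kinesins, in 4 of the 10 cargo kinesins and in 21.7% of all tested genes. All EZA libraries lay above all DMSO libraries in 1 tested kinesin, the cargo motor KIF3C, and in 21.0% of all tested genes.

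Of the 30 kinesins tested, KIF18A, KIF20A and KIF20B, all lower, also passed the study's own threshold of a 2-fold change at an unadjusted p of 0.05. In the same fit 1.96% of all tested genes passed it downward and 3.77% upward. Without EZA replicate 3 it was met by 5 kinesins: KIF11, KIF14, KIF18A and KIF20B were lower, KIF17 was higher, and KIF20A, at -0.83, was no longer past it. In that fit 2.45% of all tested genes passed the threshold downward and 2.88% upward.

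Fold changes moved with GC content in all genes. The median log2 fold change over all tested genes ran from -0.31 in 2208 genes with at most 40% GC to 0.43 in 2047 genes with more than 60%, and the tested mitotic kinesins had a median GC content of 41.6%, against 48.3% in the tested cargo kinesins and 48.5% over all tested genes. After removal of the GC and transcript length trend from the counts, the mitotic median was -0.54 and 6 mitotic kinesins fell, where 4.82% of all tested genes fell. KIF11, KIF18A, KIF18B, KIF20A and KIF23 kept their calls, KIF22 was called at -0.50 (edgeR adjusted p = 0.0437), and KIF14, KIF15 and KIF20B lost theirs, at -0.54, -0.31 and -0.75 (adjusted p = 0.135, 0.123 and 0.0865). KIF18B, at 58.4% GC, lay at -0.83 in a range where the 2007 genes of 55% to 60% GC had a median of 0.20, and it was at -1.06 with the trend removed. With the trend removed and EZA replicate 3 left out, all 11 tested mitotic kinesins fell, from -1.09 for KIF20B to -0.23 for KIF2C, where 18.4% of all tested genes fell.

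**Figure D4:**
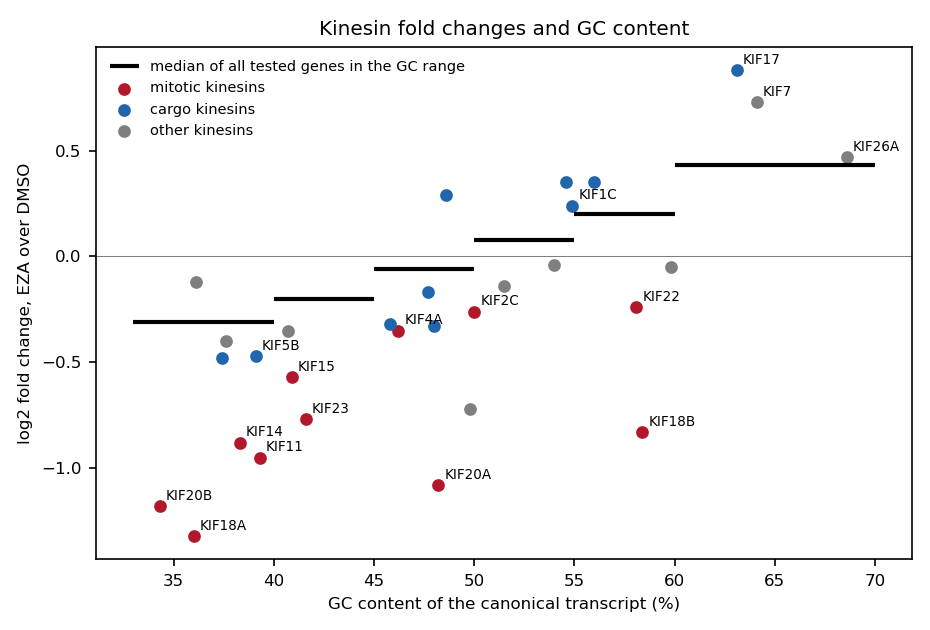
Log2 fold change, EZA over DMSO, against the GC content of the canonical transcript in percent, with a point per tested kinesin coloured by role and black bars for the median of all tested genes in 6 GC ranges. Each of the 11 mitotic kinesins lies below the bar of its range; KIF18B, for one, is at -0.83 where the bar is at 0.20.

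Among the cargo carriers, kinesin-1 was represented by KIF5B alone. KIF5B, which moves mitochondria, lysosomes and other organelles, was at 150, 167 and 219 CPM in EZA cells and 271, 226 and 247 CPM in DMSO cells. The groups did not overlap, with EZA replicate 3 nearest to DMSO. The log2 fold change was -0.47 ± 0.16 (edgeR adjusted p = 0.0733), and it passed with DESeq2, with no filter on low counts (edgeR adjusted p = 0.022, where 5.66% of all genes were called lower) and without EZA replicate 3 (-0.64, adjusted p = 1.18e-05). KIF5B has 39.1% GC; with the trend of GC and length taken out it was at -0.15 (edgeR adjusted p = 0.478), and with EZA replicate 3 also left out at -0.28 (adjusted p = 0.00126). The neuronal kinesin-1 heavy chains were near 0: KIF5A had 15 counts in the EZA libraries and 11 in the DMSO libraries, next to 12525 counts of DCTN2, whose exons overlap it on the other strand, and KIF5C had 1 count.

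Kinesin-2 motors, which drive transport into cilia as the KIF3A, KIF3B and KAP3 trimer or, with KIF3C, along axons, moved by less than the threshold. KIF3A was at 21.5, 21.5 and 28.1 CPM in EZA cells and 33.5, 28.7 and 36.8 CPM in DMSO cells (log2 fold change -0.48 ± 0.16, edgeR adjusted p = 0.0742). KIF3C was at 51.4, 49.4 and 44.7 CPM in EZA cells and 36.4, 40 and 38.0 CPM in DMSO cells (log2 fold change 0.35 ± 0.13, edgeR adjusted p = 0.0863). Neither gene's groups overlapped, and without EZA replicate 3 both were called, KIF3A at -0.62 and KIF3C at 0.40 (edgeR adjusted p = 3.02e-04 and 0.0057). With the trend of GC and length taken out KIF3A, at 37.4% GC, was at -0.10 (edgeR adjusted p = 0.606) and KIF3C at 0.23 (adjusted p = 0.199). With EZA replicate 3 also left out KIF3A was at -0.20 without a call (edgeR adjusted p = 0.109) and KIF3C was called at 0.31 (adjusted p = 0.00233). KIF3B was at 112 ± 10 CPM in EZA cells and 126 ± 2.05 CPM in DMSO cells (SD, n = 3 each). KIF17, an accessory motor of cilia and dendrites, had 58 counts in all and a log2 fold change of 0.88 ± 0.47.

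The kinesin-3 carriers held the most abundant kinesin transcript of these cells. KIF1C, which carries integrins and other vesicles to the cell edge, was at 474, 482 and 565 CPM in EZA cells and 371, 476 and 445 CPM in DMSO cells. The groups overlapped (log2 fold change 0.24 ± 0.15, edgeR adjusted p = 0.288). KIF1B, a carrier of mitochondria and synaptic vesicle precursors, was at 161, 116 and 198 CPM in EZA cells and 200, 197 and 202 CPM in DMSO cells (log2 fold change -0.33 ± 0.18, edgeR adjusted p = 0.227). The DMSO values were nearly equal and the EZA values spread widely, with EZA replicate 3 at the DMSO level. KIF16B, KIF13A and KIF13B, motors of endosomes and other membrane cargo, had log2 fold changes of -0.32 ± 0.17, 0.29 ± 0.16 and 0.35 ± 0.20, and the neuronal KIF1A had 2 counts. Without EZA replicate 3, 4 cargo kinesins were called lower (KIF1B, KIF3A, KIF5B and KIF16B) and 1 higher (KIF3C), where 19.2% and 19.1% of all tested genes were called lower and higher. The median of the 10 tested cargo kinesins was then -0.08, against -0.83 for the mitotic kinesins in the same fit.

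The other kinesins regulate microtubule ends, cilia and signalling. KIF24, a kinesin-13 of the mother centriole that restrains ciliogenesis, was at 17.4, 15.9 and 9.26 CPM in EZA cells and 22.4, 25.7 and 22.2 CPM in DMSO cells. The groups did not overlap, and the log2 fold change of -0.72 ± 0.22 missed the threshold narrowly (edgeR adjusted p = 0.0556), with a call in 7 of 16 alternatives; its exons overlap UBAP1 on the other strand. KIF2A, the kinesin-13 of spindle poles and neurites, was at 51.0, 51.0 and 43.4 CPM in EZA cells and 70.8, 58.9 and 62.2 CPM in DMSO cells (log2 fold change -0.40 ± 0.13, edgeR adjusted p = 0.0699). Its exons overlap DIMT1 on the other strand (5498 counts against 5367 of KIF2A). With the GC and length trend removed KIF2A was at -0.01, and with EZA replicate 3 also left out at 0.11. Its relatives KIF2B and KIF2C were counted as mitotic. Placed with them, KIF2A would be a further mitotic kinesin without a call, and not below 0 in every alternative. KIF21A, which slows microtubule growth at the cell cortex, was at 44.8 ± 4.53 CPM in EZA cells and 57.0 ± 1.64 CPM in DMSO cells (SD, n = 3 each). Its log2 fold change was -0.35 ± 0.13 (edgeR adjusted p = 0.0877), and -0.06 with the trend of GC and length taken out.

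KIF7, a kinesin-4 of the ciliary tip that acts in Hedgehog signalling, was at 60.2, 55.2 and 124 CPM in EZA cells and 40.5, 56.7 and 47.2 CPM in DMSO cells. Only EZA replicate 3 lay clearly above the DMSO range, and the log2 fold change of 0.73 ± 0.30 (edgeR adjusted p = 0.118) was 0.26 without that library. KIF26A, an atypical kinesin-11 without motor activity, had the same shape, with 47.2, 42.0 and 80.5 CPM in EZA cells and 32.5, 47.4 and 42.8 CPM in DMSO cells. Its log2 fold change was 0.47 ± 0.25, and 0.13 without EZA replicate 3. With no filter on low counts both were called higher (0.72 and 0.46, edgeR adjusted p = 4.60e-04 and 0.0497), while KIF26A was at -0.11 after removal of the GC and length trend. Both genes have over 60% GC (64.1% and 68.6%), and KIF7 overlaps exons of TICRR on the other strand. KIF9, KIF21B, KIF26B and KIF27 lay between -0.14 and -0.04 on the log2 scale with overlapping groups. The exons of KIF9 overlap KLHL18 on the other strand (5859 counts against 753 of KIF9). KIF12 had too few counts to be tested with all 6 libraries, with 8, 22 and 19 counts in EZA replicates 1 to 3 and 6, 2 and 7 counts in DMSO replicates 1 to 3; with no filter on low counts it was called higher, at 1.65 ± 0.57 on the log2 scale (edgeR adjusted p = 0.0364), where 6.51% of all genes were. It was also tested in each fit without 1 library other than EZA replicates 2 and 3; it was called without EZA replicate 1 (1.98 ± 0.53, edgeR adjusted p = 0.0494) and not called without DMSO replicate 1, 2 or 3 (1.80, 1.31 and 1.98, adjusted p = 0.186, 0.185 and 0.143). KIF12 also passed the study's threshold in 4 of these 5 fits, all but the one without DMSO replicate 2. KIF6 had 1 count in each group, and KIF19 and KIF25 had 0 counts, which allows up to 3 counts per library, or 0.159 to 0.213 CPM on library totals.

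Per unit of transcript length, the order of the family was set by a few motors. KIF1C led with 58.4 ± 5.34 FPKM in EZA cells and 49.2 ± 6.29 FPKM in DMSO cells, on the authors' FPKM scale (SD, n = 3 each). KIF5B followed with 30.1 ± 5.81 FPKM in EZA cells and 41.4 ± 3.66 FPKM in DMSO cells. Next came KIF2C, with 20.8 ± 1.98 FPKM in EZA cells and 24.7 ± 0.323 FPKM in DMSO cells, and KIF22, with 19.0 ± 3.37 FPKM in EZA cells and 22.2 ± 2.19 FPKM in DMSO cells. In EZA cells the levels of KIF2C and KIF22 lay within each other's spread. KIF3B was at 18.1 ± 1.42 FPKM in EZA cells and 20.3 ± 0.262 FPKM in DMSO cells, within the spread of KIF22. KIF11 was at 10.4 ± 1.00 FPKM in EZA cells, against 19.8 ± 2.28 FPKM in DMSO cells, where it lay beside KIF3B. KIF4A and KIF7 completed the first 8, with 12 ± 1.63 and 15.8 ± 7.45 FPKM in EZA cells and 15.1 ± 1.08 and 9.45 ± 1.63 FPKM in DMSO cells.

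Summed over the 39 genes, kinesins held 254, 255 and 295 FPKM in EZA replicates 1 to 3 and 306, 313 and 313 FPKM in DMSO replicates 1 to 3. Mitotic kinesins made up 34.4%, 35.4% and 29.0% of this sum in EZA cells and 42.0%, 40.5% and 41.3% in DMSO cells. The cargo share was 50.4%, 50% and 52.6% in EZA cells and 45.4%, 46.0% and 46.1% in DMSO cells. No share overlapped between the groups, including that of the other kinesins, at 14.7% to 18.4% in EZA cells and 12.7% to 13.6% in DMSO cells. The shares are parts of the same sum, so a lower mitotic share by itself raises the others. A higher cargo share therefore need not mean more cargo transcript. KIF1C alone made up 21.4% to 22.1% of the sum in EZA cells and 13.9% to 17.5% in DMSO cells, and the ratio of KIF5B to KIF1C was 0.463 to 0.566 in EZA cells and 0.695 to 1.07 in DMSO cells. These shares and ratios are descriptions without a test, and KIF1C and the ratio were chosen after their values were seen.

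**Figure D5:**
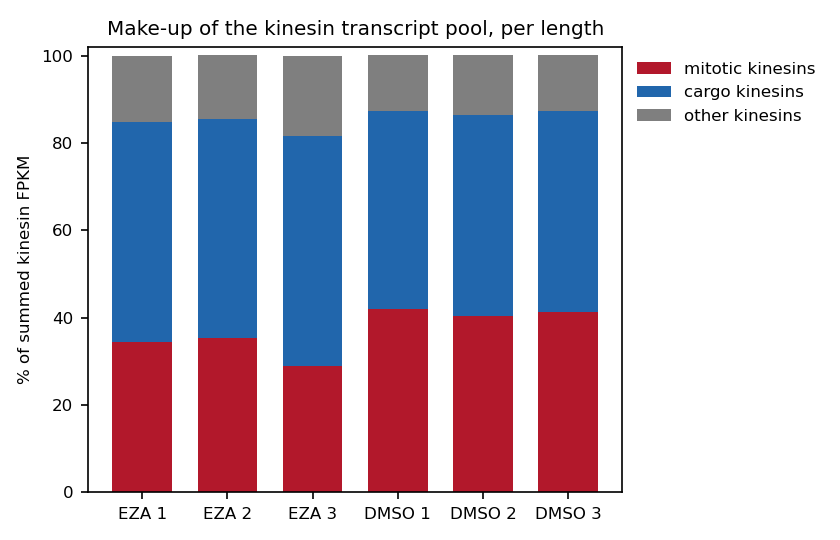
Stacked bars give the share of the summed FPKM of the 39 kinesin genes, in percent, taken by mitotic, cargo and other kinesins in each library, EZA libraries at left. The mitotic share is 29.0% to 35.4% in the EZA libraries and 40.5% to 42.0% in the DMSO libraries.

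Kinesins outside the naming rule went both ways. CENPE, the kinetochore motor that brings chromosomes to the spindle equator, was at 4.95, 3.98 and 5.80 CPM in EZA cells and 12.6, 14.7 and 12.6 CPM in DMSO cells, or -1.44 ± 0.19 on the log2 scale (edgeR adjusted p = 0.00394). KIFC2, a minus-end-directed kinesin of the C-terminal class, was at 35.4, 37.1 and 50.3 CPM in EZA cells and 9.89, 16.0 and 14.6 CPM in DMSO cells, or 1.60 ± 0.22 on the log2 scale (edgeR adjusted p = 0.00426). Neither gene's groups overlapped. Of the minus-end motors KIFC1, which focuses spindle poles, and KIFC3, the log2 fold changes were -0.36 ± 0.13 and 0.39 ± 0.18 without a call. KIFC2 kept its call in all 16 alternatives, and CENPE in 15.

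Transcripts of 26 proteins that bind, load or work beside mitotic kinesins were examined next. In edgeR 14 of these fell and 0 rose, where 7.82% and 9.89% of all tested genes did. Their median log2 fold change was -0.59. At an unadjusted p below 0.05, 19 were lower and 0 higher, where 16.6% and 18.0% of all tested genes were. With the GC and length trend removed 14 fell too, where 4.82% of all tested genes did. ANLN, BUB1B, BUB1 and ECT2 had the smallest adjusted p; ECT2, the guanine exchange factor activated by centralspindlin, was at 43.6 ± 4.14 CPM in EZA cells and 82.2 ± 5.86 CPM in DMSO cells (SD, n = 3 each). Of 15 G2/M regulators 6 fell, with a median of -0.56, among them CDC20, CCNB1, CDK1 and TOP2A at log2 fold changes of -0.87 ± 0.13, -0.69 ± 0.13, -0.82 ± 0.15 and -0.66 ± 0.14 (SE). Of 15 G1/S genes 5 fell and 1 rose, with a median of -0.15. MCM4, PCNA, RRM2 and CCNE2 had the smallest adjusted p among the falls, and E2F1 rose. With the GC and length trend removed 5 G2/M regulators and 3 G1/S genes fell, and 1 G1/S gene rose. In that fit TOP2A, RRM2 and CCNE2 lost their calls, and 4.82% and 6.57% of all tested genes fell and rose. At an unadjusted p below 0.05, 9 G2/M regulators and 5 G1/S genes were lower in it, as were 1895 of 13503 tested genes. Without EZA replicate 3, 18 partners, 9 G2/M regulators and 7 G1/S genes fell, and 3 G1/S genes rose. In that fit 19.2% of all tested genes fell and 19.1% rose, the latter close to 3 of 15. Without DMSO replicates 1, 2 or 3, 4, 9 and 5 partners, 1, 3 and 1 G2/M regulators, and 0, 1 and 0 G1/S genes fell in edgeR. In these fits 0.451%, 2.17% and 0.529% of all tested genes fell. In each of them 14 partners were lower at an unadjusted p below 0.05. So were 1472 of 13742, 1844 of 13784 and 1479 of 13811 tested genes, in that order. E2F1 lost its call without DMSO replicate 1 or 3. At an unadjusted p below 0.05, 5 G1/S genes were lower without DMSO replicate 1 and 5 without DMSO replicate 3. So were 1472 of 13742 and 1479 of 13811 tested genes, in that order. The part of these cell cycle genes in the kinesin result was not tested.

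Light chains, cargo adaptors and the genes of the minus-end motor were set beside the cargo kinesins. Of 21 light chains and adaptors tested 5 rose and 1 fell, where 9.89% and 7.82% of all tested genes did, with a median log2 fold change of 0.26. KLC4, a kinesin light chain, was at 12.5 ± 2.22 CPM in EZA cells and 6.58 ± 0.669 CPM in DMSO cells (SD, n = 3 each), and RHOT2, a Miro GTPase that links mitochondria to motors, was at 141 ± 33.3 CPM in EZA cells and 84.3 ± 12.1 CPM in DMSO cells. MAPK8IP2 and MAPK8IP3, JIP scaffolds that bind kinesin-1, rose by 1.19 ± 0.31 and 0.68 ± 0.18 on the log2 scale (SE), while TRAK2, a mitochondrial adaptor, fell to 25.9 ± 0.841 CPM in EZA cells, against 36.5 ± 1.72 CPM in DMSO cells. With the GC and length trend removed 0 adaptors were called in edgeR. In that fit 4 of the 21 were higher at an unadjusted p below 0.05, as were 2180 of 13503 tested genes. Without EZA replicate 3, 8 adaptors rose and 2 fell, where 19.1% and 19.2% of all tested genes did. Of 33 dynein and dynactin genes 2 rose, ACTR1B and HOOK2, and 2 fell, DYNLT3 and HOOK3, with a median of -0.05; these counts are no larger than the same shares of all tested genes would give. ACTR1B, a minor subunit of the dynactin filament, was at 80.7 ± 4.72 CPM in EZA cells and 46.6 ± 2.84 CPM in DMSO cells (SD, n = 3 each). With the trend removed DYNLT3 and HOOK3 lost their calls, and 2 dynein and dynactin genes rose, where 6.57% of all tested genes did. Without EZA replicate 3, 5 of the 33 rose and 9 fell, against the same 19.1% and 19.2% of all tested genes. Without DMSO replicate 1 or 3, 0 adaptors were called in edgeR, with 6 and 5 higher at an unadjusted p below 0.05. Over all tested genes 1697 of 13742 and 1739 of 13811 were higher at that p. Of the dynein and dynactin genes 0 and 1 were called higher and 0 lower. In these fits 1.15% and 1.31% of all tested genes rose, and 0.451% and 0.529% fell.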

How the data were processed

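Per the labels' protocols, the libraries hold oligo(dT)-selected mRNA and do not mark strand. HISAT2, featureCounts, DESeq2 and FastQC are named, with GRCh38 as the build, in the submitters' processing notes; no source used here gives their versions, options or annotation. Raw counts and FPKM of 6 libraries, by Ensembl identifier, were deposited by the authors. The FPKM were used for levels between genes and as an alternative scaling.

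Symbols, positions, GC content and length came from GENCODE 44 (canonical transcript); 58207 of 58735 identifiers matched. After filterByExpr and TMM scaling, 13503 genes entered edgeR's robust quasi-likelihood test (two-sided, no covariates) with Benjamini-Hochberg adjustment. SEs come from the F statistic. The members, roles, lists and tests were chosen with earlier results of these data known. Every member is accounted for; full statistics are given for called members and the 8 with the highest FPKM, with further members named after their values were seen, and from each other list up to 4 called genes with the smallest adjusted p. Alternatives were other scalings and filters, limma-voom, DESeq2, a block for the replicate number, removal of the GC and length trend (lowess, span 0.3) and each library left out. The trend was fitted per library, and leaving out a library leaves 2 in its group. The edgeR fits were tested on simulated data. Replicates differed by more than counting noise (chi-square per degree of freedom 5.07 to 126.1). Versions were Python 3.11.15, DESeq2 1.42.0, limma 3.58.1, edgeR 4.0.16 and R 4.3.3.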

Additional observations from a re-analysis of the deposited data

How the results depend on the processing

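The 11 tested mitotic kinesins were below 0 in all 16 alternatives, while the number of calls moved with the libraries. Over the fits of EZA against DMSO that left out 1 library, all genes called ran from 220 to 5289, kinesins called lower from 0 to 16, kinesins called higher from 0 to 1, mitotic kinesins called lower from 0 to 9, cargo kinesins called from 0 to 5, kinesins past the study's threshold from 3 to 5, and the cargo median log2 fold change from -0.08 to 0.08. In these fits the share of all tested genes called ran from 0.451% to 19.2% lower and from 1.15% to 19.1% higher. Once the GC and length trend was removed, 1538 genes were called and the mitotic median was -0.54. With EZA replicate 3 also left out 5329 genes were called, with 16 kinesins lower and 2 higher and 5 cargo kinesins called. In that fit 18.4% of all tested genes were called lower and 20.2% higher. The cargo median was then -0.02, and KIF26A was at -0.21, below 0 where the reported value was above it. With library size alone the cargo median was -0.01. With no filter on low counts 3 kinesins were called higher, where 6.51% of all genes were, and 2 cargo kinesins lower, where 5.66% were. DESeq2 called 1 cargo kinesin lower, where it called 10.1% of all genes lower. The causes of these differences were not tested. Equal replicate numbers did not pair the libraries (correlation of deviations 0.033, -0.175 and 0.027). With the replicate number as a block 9 kinesins were lower, where 6.2% of all tested genes were. Of these 9, 8 were those reported, and 1970 genes were called in all. The block with the trend removed gave 602 calls and a mitotic median of -0.58. In that fit 3 mitotic kinesins were lower (KIF11, KIF18B and KIF20A), where 1.71% of all tested genes were. For KIF6, KIF17, KIF1A, KIF4B, KIF5A, KIF5C and KIF12, counts were too low to show a moderate difference.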
